A study of Mus musculus with 5 samples.

Results

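Slc26 genes encode a family of membrane proteins that exchange or conduct anions such as chloride, bicarbonate, sulfate and iodide. The family, and pendrin (Slc26a4) above all, was followed in the lungs of C3H mice, an inbred strain, after sensitisation and challenge with ovalbumin, an egg-white protein used as a model allergen. Members were taken by gene name: probes whose platform annotation names only 1 gene of the family, kept where the gene had a value on at least 4 of 5 arrays. By that rule 4 of 9727 measured genes are members: Slc26a1, Slc26a2, Slc26a4 and Slc26a5, each with 1 probe. The family was selected on the mean log ratio of Slc26a4 in these same 5 arrays, known to be large, so the members' ratios are given as a description, without a test.

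The 5 ova mice are numbered as separate animals in the labels, and RNA from each lung, amplified before labelling, was hybridised on its own 2-colour array against 1 pool of amplified RNA from control C3H lungs. The pool is the only control. The number of mice in it, their treatment and the age of the animals are not given in the sources used. Each value is a log ratio of both channels, taken here as log2 and centred on the median of its array. Log base and numerator are not stated, so a gene is placed on the negative or positive side of the ratio and nothing is called higher or lower in the ova lung. The lung is a mixture of cells, so a difference in the number of cells of a type and a difference in RNA per cell cannot be told apart.

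Pendrin sits in the apical membrane of epithelial cells, where it exchanges chloride for bicarbonate, iodide or thiocyanate. It supports iodide transport in the thyroid, ion balance in the inner ear and bicarbonate secretion by kidney intercalated cells. In airway epithelium it is known as a target of the type 2 cytokine interleukin-13, acting through the receptor chain Il4ra and the transcription factor Stat6, and is also induced by interleukin-17A. It is thought to affect the airway surface liquid and to supply thiocyanate to peroxidases that work with the dual oxidases. Its relatives have other roles: Slc26a2 and Slc26a1 carry sulfate, and Slc26a5 is prestin, the motor protein of outer hair cells in the cochlea.

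Short stretches of RefSeq promoter are shown for Slc26a4, Slc26a1 and Slc26a5. The core promoter of Slc26a4 differs in sequence from those of Slc26a1 and Slc26a5 at the place where a TATA element would lie. Each stretch covers bases -45 to -16 counted from an annotated start in build GRCm38.p6 of the RefSeq promoter table, on the gene's strand, and capitals mark a TATAAA match. Slc26a2 is not shown, and its promoter was not among the Slc26 promoters searched below.
Slc26a4 (chr12:31560000-31560029, minus strand): ctttgagtgagagcTATAAAggcagcagaa
Slc26a5 (chr5:21865620-21865649, minus strand): acagctccaccacccactgggccacccgca
Slc26a1, start 1 (chr5:108674812-108674841, minus strand): cgtggtcagcacagcctgagaatttttcag
Slc26a1, start 2 (chr5:108675381-108675410, minus strand): tgggtaaataatttaacagtgagcccagcg

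In the Slc26a4 promoter the letters TATAAA begin at position -31. Searched on both strands of the 300 bases around each of 32851 annotated starts, TATAAA was found in 13.6% of promoters, and in 8.32% on the gene's strand. Start 1 of Slc26a1 held it on the opposite strand only, and start 2 and Slc26a5 did not hold it. The letters TTC and GAA with 4 bases between them, the form to which Stat6 is known to bind, were found in 6.95% of promoters, and in none of the 4 Slc26 promoters searched. Of 8 other genes searched, Retnla (RELM-alpha), chosen after its values were seen, held them, and the other 7 (Sar1a, Cxcl9, Ccl8, Reg3g, Rnase2a, Cd163 and Igf1) did not. No promoter was searched for Clca1, or for Muc5ac and C1qa, the genes nearest to Slc26a4 by each measure below. A missing match says only that these letters are not in this window.

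Slc26a4 had the most negative ratio of the family by a wide margin. Its ratios were -2.19 in mouse 1, -3.87 in mouse 2, -3.28 in mouse 3, -3.82 in mouse 4 and -3.41 in mouse 5. All mice were far on the negative side, mouse 1 the least and mice 2 and 4 the most. The mean was -3.31 ± 0.68 (SD, n = 5), a size of 9.95-fold if the log base is 2 and 27.5-fold if it is the natural logarithm. Among all 9727 genes ordered by mean ratio, Slc26a4 was at rank 8 from the negative end, and on single arrays it was between rank 6 (mouse 4) and rank 12 (mouse 1).

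Slc26a2, the sulfate transporter that supplies sulfate for proteoglycans, came next. Its ratios were -0.30, -0.92, -0.62, -0.57 and -0.85 in mice 1 to 5. These are all below 0 and above every Slc26a4 value, so the ranges of both genes do not overlap. The mean was -0.65 ± 0.25 (SD, n = 5), which placed it at rank 256 of 9727 from the negative end. Within a mouse, the difference Slc26a4 minus Slc26a2 was between -1.89 (mouse 1) and -3.26 (mouse 4), with a mean of -2.66 ± 0.51 (SD, n = 5).

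The remaining members lay around 0. Slc26a5 had ratios of 0.05, -0.11, 0.23, -0.19 and 0.18 in mice 1 to 5, 3 above and 2 below 0, and a mean of 0.03 ± 0.18 (SD, n = 5). Slc26a1, a sulfate and oxalate exchanger, was blank on the array of mouse 1 and had -0.10, -0.09, 0.20 and 0.01 in mice 2 to 5, with a mean of 0.00 ± 0.14 (SD, n = 4). In the order Slc26a4, Slc26a2, Slc26a1, Slc26a5, the last pair overlap and their means differ by less than either SD.

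**Figure D1:**
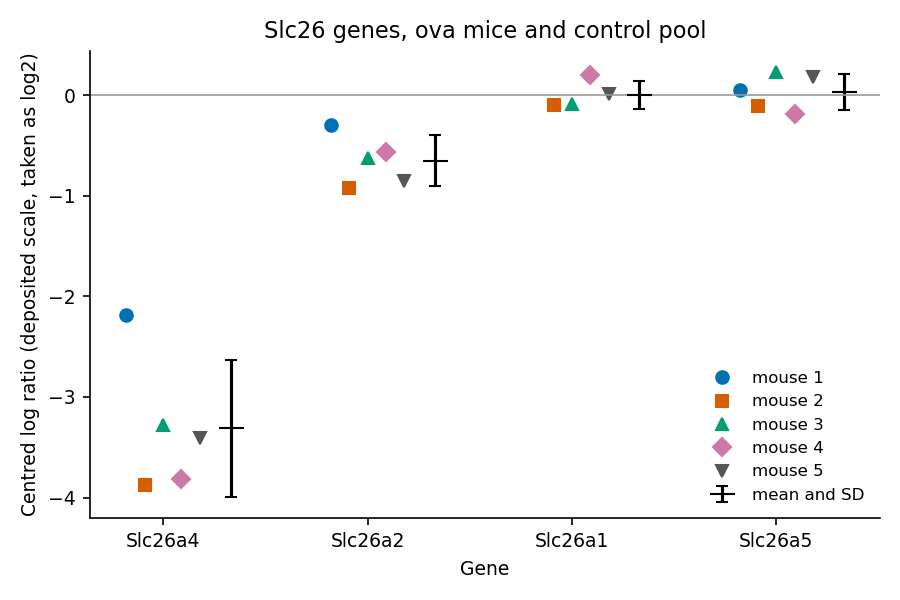
Centred log ratio (vertical axis, deposited scale taken as log2) of the 4 Slc26 genes (horizontal axis) in each ova mouse, with 1 symbol per mouse and the mean with its SD at the right of each gene. Slc26a4 lies between -2.19 and -3.87, Slc26a2 between -0.30 and -0.92, and Slc26a1 and Slc26a5 straddle 0.

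Of 6 Slc26 genes named by 7 probes, 2 fell short of the limit on arrays. Slc26a6, another chloride-bicarbonate exchanger of epithelia, had values on 2 arrays only, -0.02 in mouse 3 and 0.06 in mouse 4. Slc26a3, the chloride-bicarbonate exchanger of the gut whose gene lies close to Slc26a4 on chromosome 12, was blank for both its probes on every array. Slc26a1, with 4 arrays, is the member just inside the limit. A blank gives no level, since spot brightness was not available to any step.

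The mice differed in Slc26a4 more than in nearly all genes, as far as the unscaled values go. Its SD of 0.68 exceeded the SD of 99.7% of 8042 genes with 5 values, whose median SD was 0.13. Large ratios vary more in general: among 17 genes with a mean below -2 and 5 values, Slc26a4 included, SDs ran from 0.18 to 1.23 with a median of 0.60, and 9 were smaller than that of Slc26a4. Without mouse 1 the SD of Slc26a4 was 0.30.

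The array of mouse 1 had smaller ratios in general, though not for every gene. Its SD across probes was 0.20 against 0.32 to 0.38 on the other arrays. The ratio of Slc26a4 in mouse 1 was 0.61 of its mean in mice 2 to 5, close to the median of 0.68 over the same 17 genes (range 0.31 to 1.00), while Slc26a2 had 0.41. When the arrays were scaled to the same median size of ratio, Slc26a4 had -3.32, -4.13, -3.02, -3.06 and -2.87 in mice 1 to 5, with a mean of -3.28 ± 0.50 (SD). On that scale mouse 2 stood apart on the negative side and mouse 1 was within the range of the others. Which mouse has the smallest pendrin ratio thus depends on the scaling, and a real difference of mouse 1 cannot be told apart from its array.

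Genes with values most like those of Slc26a4 were looked for among the other 8041 genes with 5 values. The measure was the root mean square difference over the 5 mice (median over all genes 3.37). Slc26a4 was chosen for its large ratio, so this median mostly restates its distance from genes near 0. Few genes could lie near it by value, since only 17 with 5 values, Slc26a4 included, had a mean below -2. Muc5ac, the main secreted mucin of goblet cells, was the nearest, with a difference of 0.40. Its ratios were -2.25, -3.75, -2.78, -3.19 and -3.02 in mice 1 to 5, so mouse 1 was the least and mouse 2 the most negative, as for Slc26a4. Sar1a, a GTPase of vesicle export (0.62), the interferon-induced chemokine gene Cxcl9 (0.64), the chemokine gene Ccl8 (0.73) and Reg3g, an antimicrobial lectin of epithelia (0.75), followed. The probe of Sar1a (mean -3.22) lies 18 probe numbers from that of Clca1 (-4.33).

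After subtracting each gene's own mean, which leaves only how the mice differ, the median difference over all genes was 0.61. C1qa, a complement C1q chain made by macrophages, was then nearest at 0.09, with ratios of -0.68, -2.13, -1.50, -2.16 and -1.74. Rnase2a, an eosinophil-associated ribonuclease, followed at 0.13, the haemoglobin scavenger receptor gene Cd163 of macrophages at 0.22, the growth factor gene Igf1 at 0.25 and Muc5ac at 0.25. Muc5ac is the gene that both orders share. In each of the 5, mouse 1 had the highest value, which for Cd163 was above 0 (0.25, against -1.25, -0.39, -0.76 and -0.81 in mice 2 to 5), and mouse 2 the most negative except in C1qa, where mouse 4 (-2.16) was just below it. All arrays share the control pool, and the smaller ratios of mouse 1 are part of every such profile, so the likeness describes these 5 arrays.

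**Figure D2:**
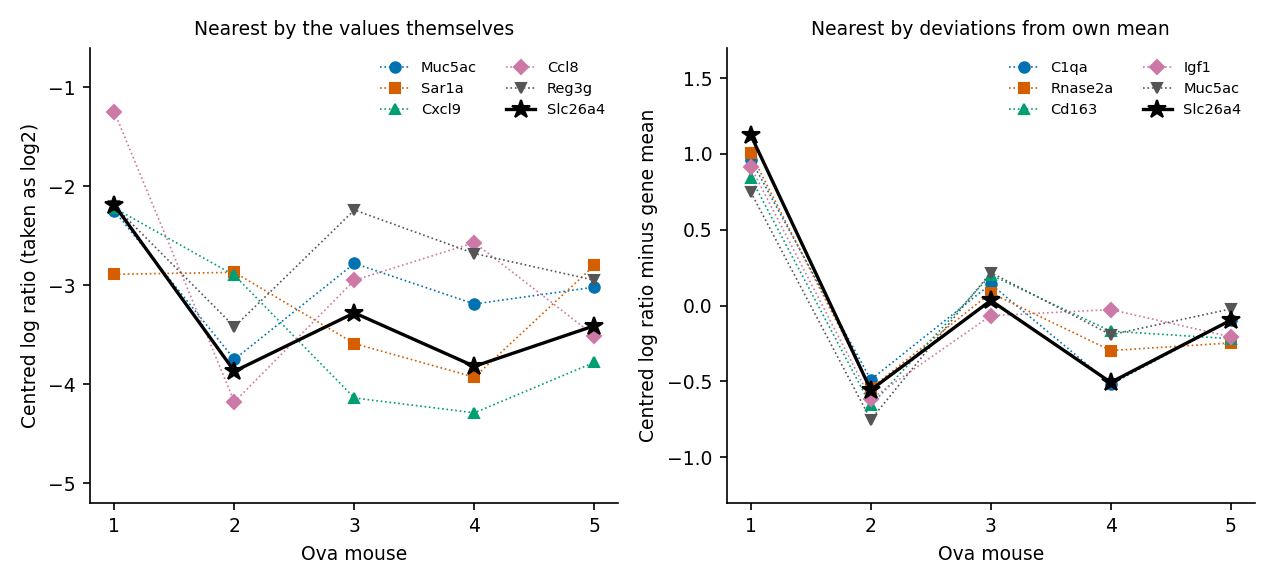
Left, centred log ratio in ova mice 1 to 5 for Slc26a4 (black stars) and the 5 genes nearest to it by value. Right, the same after subtracting each gene's mean, for the 5 genes nearest by deviation; lines only join points of a gene. Muc5ac tracks Slc26a4 in both panels, and mouse 1 is the highest in each profile on the right.

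Probe position was then considered, because ratios on these arrays are related at fixed distances in probe number. The 21 probes with a mean below -2 were paired with probes 6, 12, 18 or 24 numbers away. The paired probe named another gene or had no single gene name, and pairs of such strong probes counted from each side. Of 143 pairs, 26 (18.2%) had a paired probe with a mean below -0.5, against 4.21% of all 11714 probes. Of these 26, 10 were at distance 6, 8 at 18, 8 at 24 and 0 at 12. Slc26a4 had no stronger probe at any of these distances: 7 of the 8 probes around it had means between -0.09 and 0.23 (1 of them, of Fbxl2, from 2 values). The eighth, a probe of the condensin subunit gene Ncaph2 at distance 24, had -0.14, -0.67, -0.69, -0.72 and -0.79 in mice 1 to 5, whereas the other Ncaph2 probe had a mean of -0.09.

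For Slc26a2 the picture was different. A probe of Reep2, a gene for an endoplasmic reticulum shaping protein, lies 6 numbers away and had -1.13, -2.15, -1.84, -1.66 and -2.26 in mice 1 to 5, with a mean of -1.81. Both genes were least negative in mouse 1 and most negative in mice 2 and 5, and Slc26a2 has no other probe. The part of this neighbour in the Slc26a2 ratio was not tested. Slc26a5 lies 12 numbers from a stronger probe, of Igsf6 (-1.06), and kept values on both sides of 0.

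**Figure D3:**
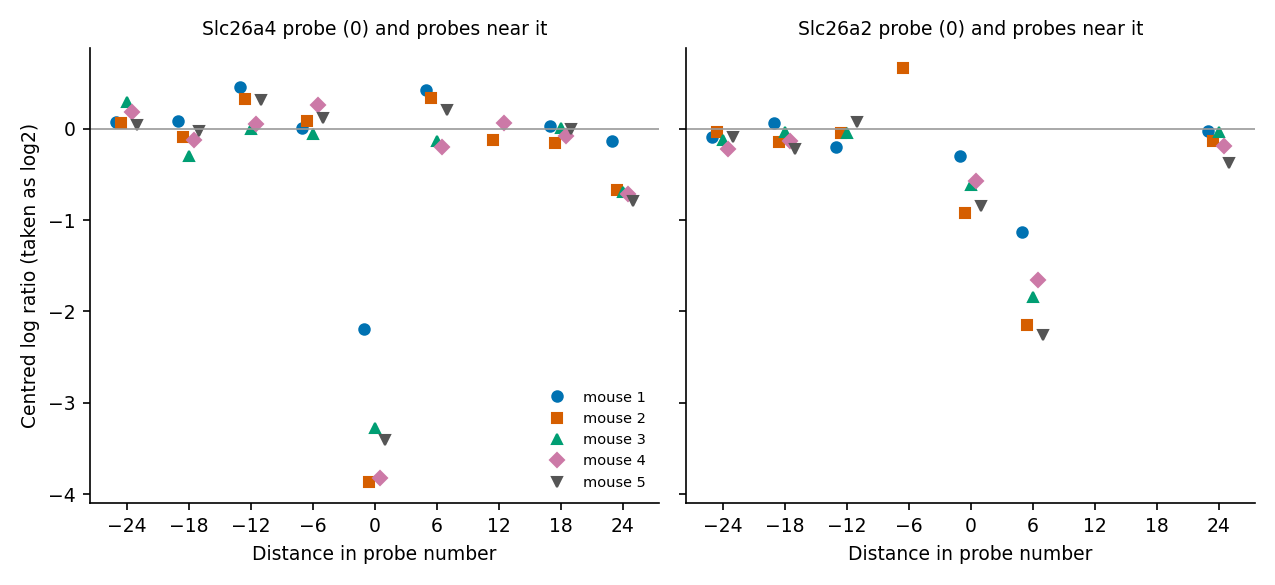
Centred log ratio (vertical axis, taken as log2) of the Slc26a4 probe (left) and the Slc26a2 probe (right), drawn at 0, and of probes 6, 12, 18 and 24 numbers before or after them, with 1 symbol per ova mouse. Around Slc26a4 the probe at 24 (Ncaph2) has a mean of -0.60 and the others have means between -0.09 and 0.23, while the probe 6 after Slc26a2 (Reep2, mean -1.81) is more negative than Slc26a2 itself.

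Genes of pathways and cells related to pendrin were described next, from 6 lists. A limma fit over all 9727 genes asked of each whether its mean ratio differs from 0 (two-sided, Benjamini-Hochberg adjusted p under 0.05), a test that leaves out the spread among control mice. By this test 27.3% of all genes passed, 15.0% on the negative and 12.3% on the positive side, and the median ratio of all genes was 0.00. Of 16 genes set down as direct partners of pendrin, 12 have a named probe and 11 were tested. The dual oxidase genes Duox1 and Duox2, the proton pump gene Atp12a and the receptor gene Il4ra have no named probe, and the chloride channel gene Ano1 had 1 value (0.15).

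Of 31 tested genes for apical anion secretion and its regulators, 7 passed below 0 and 2 above 0, and 22 did not pass. That is 29.0%, near the share of all genes, and the list median was -0.01. Clca1, a secreted metalloprotease of goblet cells that activates a calcium-dependent chloride channel, had -3.68, -4.77, -4.38, -4.52 and -4.29 in mice 1 to 5 and was the only gene of the list as far from 0 as Slc26a4 (mean -4.33 ± 0.40, limma adjusted p = 4.01e-06, n = 5). The cystic fibrosis chloride channel gene Cftr, the partner of pendrin at the apical membrane, had values between -0.06 and 0.04 in 4 mice and a mean of -0.01 ± 0.04, and Slc12a2, the basolateral chloride loader, had 0.09 ± 0.16; neither passed.

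The other 3 genes with the largest ratios in that list were smaller than Slc26a2 or near it. The scaffold gene Slc9a3r2 (NHERF2) had 0.66 ± 0.34, the red cell and kidney anion exchanger gene Slc4a1 -0.63 ± 0.31 and Stk39, a kinase that regulates chloride cotransporters, -0.50 ± 0.08. The count below 0 was 4 without mouse 2 and 3 when mouse 3 or mouse 5 was left out. Above 0 it was 1 when any one of mice 2, 3, 4 and 5 was left out.

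Genes of proton and sodium transport, water channels and carbonic anhydrases lay on both sides. Of 22 tested, 4 passed below 0 and 6 above 0 (45.5%, median 0.05). The carbonic anhydrases, which make bicarbonate from carbon dioxide, split: Car13 had -1.06 ± 0.43 and Car2 -0.35 ± 0.17, while Car3, the muscle and fat form, had 0.93 ± 0.46. Car4, the membrane-bound form of lung capillaries, gave -0.04 ± 0.35 and did not pass. Car12 had 0.16 ± 0.09 with a limma adjusted p of 0.0491, and its call was lost without mouse 2, 3, 4 or 5 and when 3 arrays sufficed (0.0387 to 0.148 over its 12 alternatives).

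In the same list the proton channel gene Hvcn1 had -0.52 ± 0.21. The epithelial sodium channel subunit gene Scnn1a, which takes up the sodium that balances secretion, had 0.29, 0.72, 0.84, 1.12 and 0.98 in mice 1 to 5 (mean 0.79 ± 0.32, limma adjusted p = 0.00239), all on the side opposite to Slc26a4. The other subunits, chosen after their values were seen, were Scnn1b at 0.41 ± 0.32, above 0 in 4 of 5 mice, and Scnn1g at 0.24 ± 0.15. The positive count of this list was 3 without mouse 2, 3 or 5.

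The vacuolar proton pump works beside pendrin in intercalated cells and acidifies lysosomes in all cells. Of 19 tested subunit genes, 8 passed below 0 and 0 above 0 (42.1%, median -0.16), and at an unadjusted limma p under 0.05 the counts were 10 and 0. The ratios were small: Atp6v1a had -0.39 ± 0.31, Atp6ap2 -0.36 ± 0.23, Atp6v0a4 -0.35 ± 0.25 and Tcirg1 -0.32 ± 0.25. The count was 4 without mouse 2, 3 without mouse 3, 5 without mouse 4 and 1 without mouse 5, and the count of all genes below 0 also dropped, from 1463 to 928 without mouse 5. The means kept their side with 1 mouse left out, lying between -0.48 and -0.31 for Atp6v1a, -0.44 and -0.30 for Atp6ap2, -0.41 and -0.25 for Atp6v0a4, and -0.37 and -0.22 for Tcirg1. Highest adjusted p-values over 12 alternatives were 0.108 for Atp6v1a, 0.0624 for Atp6ap2, 0.0786 for Atp6v0a4 and 0.0986 for Tcirg1, and the lowest were 0.0124, 0.00586, 0.0142 and 0.0224.

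Among 14 tested genes of thiocyanate, iodide and peroxidase chemistry, 3 passed below 0 and 1 above 0 (28.6%, median -0.03). Lpo, the airway lactoperoxidase that uses thiocyanate, had values between -0.16 and 0.08 and a mean of -0.02 ± 0.09, and did not pass. Mpo, the myeloperoxidase of neutrophils (-0.50 ± 0.27, n = 4), Mpst, a sulfurtransferase (-0.33 ± 0.20), and Sod2, the mitochondrial superoxide dismutase (-0.32 ± 0.21), were on the negative side, and the cytosolic Sod1 (0.56 ± 0.26) on the positive side. The negative count was 0 without mouse 3 (limma adjusted p of 0.0584 for Mpo, 0.0617 for Mpst and 0.0707 for Sod2) and 1 without mouse 5. The positive count was 2 without mouse 1. Over their alternatives adjusted p ran from 0.00182 to 0.0584 for Mpo, 0.0102 to 0.0617 for Mpst and 0.00768 to 0.0721 for Sod2.

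Thyroid tissue also makes pendrin, and its markers were fixed as a list for tissue other than lung. Thyroglobulin (Tg) had values between -0.04 and 0.08 and a mean of 0.03 ± 0.04, Tshr 0.09 ± 0.04, Iyd 0.10 ± 0.13 and the iodide transporter gene Slc5a5 -0.12 ± 0.21. Of these 4 tested genes of 12 listed, 0 passed in limma, and 0 had an unadjusted p under 0.05. Pax8, Dio1 and Casr had values on 1, 2 and 3 arrays, and Pth on none. The part of such tissue in the Slc26a4 ratio was not tested.

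The list for interleukin-4, interleukin-13 and interleukin-17 signalling also holds other cytokine and receptor genes, such as Il5, Il9, Tnf and Ifng. Of its 27 tested genes, 8 passed below 0 and 2 above 0 (37.0%, median -0.07). Of the direct partners of pendrin in this list, the receptor gene Il13ra1 had -0.03 ± 0.10 and did not pass. Stat6 had -0.03, 0.11, -0.36, -0.96 and -0.10 in mice 1 to 5 (mean -0.27 ± 0.42, limma adjusted p = 0.194), mouse 4 being the lowest. Il17ra had -0.18 ± 0.05 and was below 0 in 5 of 5 mice; its limma adjusted p of 0.0186 rose to 0.0501 without mouse 1, 0.0638 without mouse 3 and 0.0663 without mouse 5 (0.0178 to 0.0663 over 12 alternatives).

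The genes with the largest ratios among those passing in the same list were Socs1, Il5, Jak2 and Tslp. Socs1, a feedback inhibitor of cytokine signalling, had -0.50, -1.13, -1.09, -1.45 and -1.18 (mean -1.07 ± 0.35, limma adjusted p = 0.00117, n = 5), and Il5, the eosinophil growth factor, -0.84 ± 0.23. The probe of Il5 lies 24 numbers from that of Mcm3 (-1.05). The kinase gene Jak2 had -0.51 ± 0.15, and the epithelial alarmin gene Tslp 0.45 ± 0.11 on the positive side. Il13 and Il4 themselves had 3 values each, -0.02, 0.08 and -0.22 for Il13 and 0.06, -0.72 and -0.52 for Il4 in mice 1, 2 and 5, and were not tested. The negative count of the list was 5 without mouse 2 and 4 without mouse 3 or 5, and the positive count 1 without mouse 2 or 3.

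Partners of pendrin in ionocytes and intercalated cells gave 4 of 16 below 0 and 1 above 0 (31.2%, median -0.03). The passing negative genes were Slc4a1, Car2 and Atp6v0a4, given above, and the pump subunit gene Atp6v1b1 (-0.28 ± 0.12). Foxi1, the transcription factor that drives Slc26a4 in ear and kidney and marks airway ionocytes, had values between -0.12 and 0.14 and a mean of 0.05 ± 0.11, and did not pass. Stap1, an adaptor protein gene, was the positive one at 0.41 ± 0.19.

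**Figure D4:**
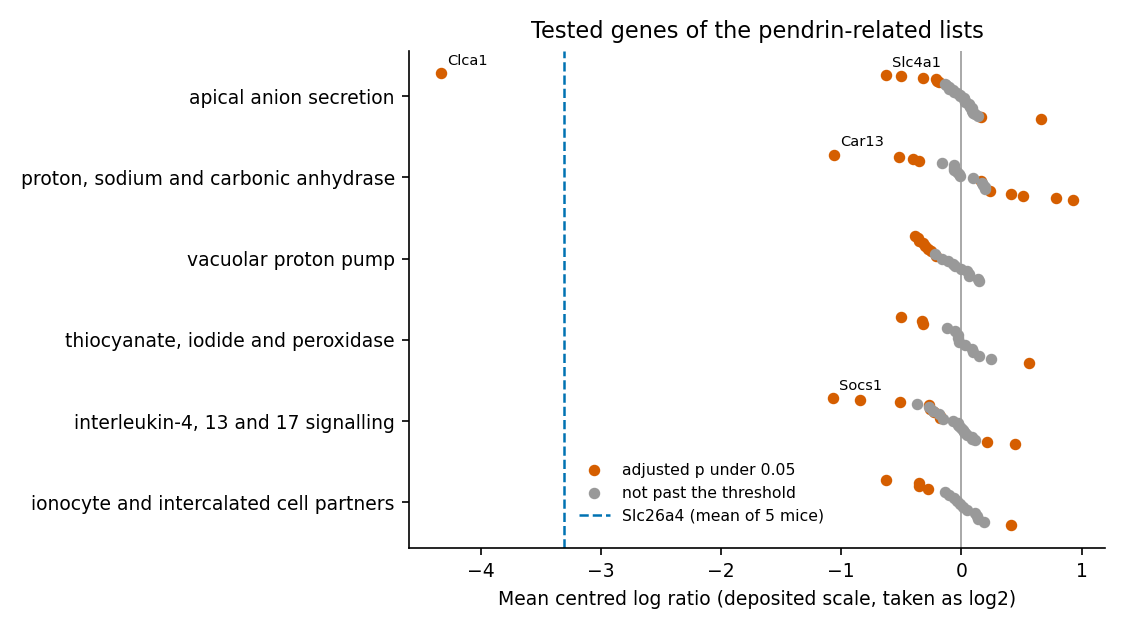
Mean centred log ratio over the mice (horizontal axis, deposited scale taken as log2) of each tested gene in the 6 pendrin-related lists (rows), in orange where limma's adjusted p was under 0.05 and in grey otherwise. The dashed line marks Slc26a4 at -3.31; Clca1 at -4.33 is the only listed gene beyond it, and all others lie between -1.07 and 0.93.

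Markers of the cells a lung sample can hold are given as counts past the threshold below and above 0, with the list median. Of all 9727 genes tested, 15.0% passed below 0 and 12.3% above 0. The marker counts were not recomputed with a mouse left out. Goblet and mucous cell genes had 7 below and 0 above of 9 (median -1.21; 8 and 0 at an unadjusted limma p under 0.05), general epithelial genes 5 and 2 of 11 (-0.12), macrophage genes 4 and 0 of 5 (-1.23), eosinophil genes 3 and 1 of 5 (-0.39) and lymphocyte genes 3 and 0 of 7 (-0.18). Club cell genes had 0 and 3 of 7 (0.20), ciliated cell genes 2 and 1 of 6 (-0.04), alveolar type 2 genes 1 and 3 of 7 (-0.05), alveolar type 1 genes 0 and 5 of 7 (0.51), heart muscle genes 0 and 3 of 6 (0.31) and fat genes 0 and 3 of 3 (0.24). At an unadjusted limma p under 0.05 the empty sides of the macrophage, lymphocyte, club cell, alveolar type 1, heart muscle and fat lists also held 0 genes. The goblet cell median ran from -0.69 to -1.84 over the mice. The part of the cell make-up in the ratio of Slc26a4 was not tested. Pearson's r across probes was 0.64 to 0.83 for the pairs of arrays, all above 0, so the ratios point 1 way across arrays. The shared control pool enters each of these values, and its part was not tested.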

How the data were processed

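The deposited table gives 1 log2 ratio (as read here) per probe and array, made by the authors from 2-colour arrays by steps not given in the sources used here. Array medians of the deposited values were 0.008, 0.004, -0.015, -0.006 and 0.003 for mice 1 to 5; scale (base 2 or natural logarithm), direction and dyes stay unknown, and the largest size, 5.168, exceeds the log10 range of a 16-bit scanner, 4.82. Of 17280 probes, 14722 have 1 gene symbol in GEO's platform annotation, 1 has several and 2557 have none; 14445 matched a gene identifier of GRCm38.p6, which changed 0 symbols. Between 11778 and 13320 probes had a value on an array; with 5 arrays, their number limits the precision.

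Arrays were centred on their median, probes of a gene averaged, and genes with values on at least 4 arrays tested with limma 3.58.1 (lmFit, eBayes) in R 4.3.3, checked on simulated data. Members and gene lists were chosen with earlier results of these data known. Named genes are every Slc26 gene with a value, up to 4 genes of largest ratio per list among those passing, the 16 partners and the 5 nearest genes by each measure; marker genes and others are named as stated. Promoter letters come from the RefSeq table of GRCm38.p6.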

Additional observations from a re-analysis of the deposited data

Results flagged for a closer look

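Among 44 genes examined (the 4 Slc26 genes and the named genes), 1 had a mouse far from the others by Dixon's criterion, which flags about 1 group in 20 by chance. Jak2 had -0.25 in mouse 1 against -0.59 to -0.55 in the other 4 mice. The gap of mouse 1 took up 0.873 of the whole range, above the limit of 0.71 for 5 samples. The array of mouse 1 also had the smallest spread of ratios across probes, 0.20.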

How the results depend on the processing

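The means of the 4 Slc26 genes moved by less than 1 SD under all 43 alternative values computed for them. The alternatives were centring, scaling, quantile normalization, array minimum, median of probes and each mouse left out. Only scaling and quantile normalization could have moved a mean that far. Leaving out the centring cannot, since the array medians lay between -0.015 and 0.008. Leaving out 1 mouse cannot, each gene has 1 probe, and the array minimum leaves a gene's values unchanged. Slc26a4 lay between -3.59 and -3.18, Slc26a2 between -0.74 and -0.58, Slc26a1 between -0.06 and 0.04 and Slc26a5 between -0.02 and 0.09 with 1 mouse left out. As a fold, Slc26a4 was 27.5 under the natural logarithm against 9.95. Its SD was 0.27 after quantile normalization and 0.30 to 0.78 with 1 mouse left out. With 1 mouse left out, genes past the threshold numbered 928 to 1429 on the negative side (1463 over 5 mice) and 671 to 1124 on the positive side (1193). In the lists the negative and positive counts were then 3 to 5 and 1 to 2 for anion secretion, 4 to 5 and 3 to 7 for proton, sodium and carbonic anhydrase, 1 to 7 and 0 for the proton pump, 0 to 3 and 1 to 2 for thiocyanate and iodide, 4 to 8 and 1 to 2 for interleukin signalling, and 3 to 4 and 1 for ionocyte partners. Fewer arrays were then fitted and 3 values sufficed. The positive count was 2 against 1 for thiocyanate and iodide after scaling or quantile normalization, and for ionocyte partners after either or with values on all 5 arrays; the cause was not tested. Of 72 alternative values of the medians of the 6 lists, 3 moved by at least the SD of that median between mice. The interleukin signalling median was -0.18 with values on all 5 arrays, against -0.07. The ionocyte partner median was 0.01 in that setting and -0.01 without mouse 1, against -0.03. Of 478 values of the 40 named genes, 33 lost their call. To 2 decimals, 4 values lay on the other side of 0, of at most 0.03 in size and all of genes that did not pass (Cftr, Car4 and Lpo), and 0 of genes that passed. No paired analysis was possible because the series has 1 group. Spot brightness over background could not be examined.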
